A study of Mus musculus with 26 samples.

Results

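The genes described here are 41 homeobox genes outside the Hox clusters, read as named rows of the study's 2 mouse RNA-seq count tables, each of which lists 41442 gene rows. They were taken by gene symbol, and all 41 were found in both tables. They comprise 6 Meis and Pbx cofactors, 2 Tgif repressors, 6 Iroquois (Irx) factors, 4 Msx and Barx factors, 6 Dlx factors, 4 LIM homeobox (Lhx) factors, 6 paired-type factors (Prrx, Alx, Shox2 and Pitx1), 5 zinc finger homeobox factors (Tshz and Zfhx) and the CUT-domain factors Cux1 and Satb1.

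Homeobox genes encode transcription factors that bind DNA through a homeodomain. The families differ in how they act: Meis and Pbx proteins are cofactors that bind beside Hox proteins, Msx, Tgif and Satb proteins act largely as repressors, and Dlx, Lhx and Prrx proteins pattern limb, face, gonad or mesenchyme. In the reproductive tract, Dlx5 and Dlx6 are known from the uterine lining and genital outgrowth, Msx1 and Msx2 from the uterus and Müllerian duct, and Lhx9 from the early gonad.

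The study sorted red fluorescent mesenchymal cells from mouse embryos. The 4 fetal groups were Gli1-CreER; Rosa-Tomato mesonephros, the tissue that carries the Wolffian and Müllerian ducts, from females (XX) and males (XY) at E14.5 and at E16.5 (days of embryonic development). The 2 uterine groups were Gli1+ cells (Gli1-CreER; Rosa-Tomato) and Amhr2+ cells (Amhr2-Cre; Rosa-Tomato) of the neonatal uterus at E19.5. Each group has 3 RNA-seq libraries, and accessible chromatin was profiled by ATAC-seq in the fetal Gli1+ groups, 2 samples each. Tamoxifen, which switches on CreER, was given to the dams of all groups on E12.5 and 13.5, each time at 1 mg. The reporter therefore marks cells in which the Gli1 driver, a target of hedgehog signalling, was active around those days, and their descendants; the Amhr2 driver, the anti-Müllerian hormone receptor gene, needs no tamoxifen. The labels tie no library to an animal or litter, so p-values measure the spread between these libraries, which may be technical.

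Library totals were 23382983 to 64602477 counts in the fetal table and 28709191 to 37541045 in the uterine table, so that 3 counts equal 0.0464 to 0.128 CPM (read counts scaled to a fixed library total) and 0.0799 to 0.104 CPM, respectively. All libraries carried the labelled sex's genes, with traces of Y-linked transcripts in E14.5 female replicate 3 and of Xist in E14.5 male replicate 3. The former library also held a fetal globin transcript, Hbb-y, at 782 CPM. Gli1, the driver gene, measured 184 ± 0.295 CPM (SD over 3 libraries) in E14.5 females, 228 ± 17 CPM in E14.5 males, 50.7 ± 2.88 CPM in E16.5 females and 208 ± 13.3 CPM in E16.5 males. Gli1 was at 17.9 ± 2.85 CPM in uterine Gli1+ and 10.5 ± 2.63 CPM in uterine Amhr2+ cells, where Amhr2 was at 4.10 ± 0.997 and 11.1 ± 4.31 CPM, respectively. The 8 mesenchyme markers summed to 27584 CPM or more in every library, and none was at 0. These are bulk samples: fewer cells of a type and less RNA per cell cannot be told apart.

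The members spanned more than 3 orders of magnitude in level. Per kb of annotated exon, a scale that allows different genes to be compared, the most abundant in E14.5 females were Pbx2 (42.5 ± 1.58 CPM per kb, n = 3), Meis1 (35.0 ± 0.795), Tshz3 (34.6 ± 1.68) and Tshz1 (29.4 ± 1.61). Meis1 and Tshz3 differed by less than their spread. The same genes were the 4 highest in each fetal group. In the uterus Tshz3 led in Amhr2+ cells at 55.4 ± 7.13 CPM per kb. In uterine Gli1+ cells the first 4 were Meis1 (30.4 ± 2.58), Prrx2 (29.0 ± 2.33), Pbx2 (28.8 ± 1.98) and Tshz2 (27.6 ± 2.14). Each of these differed from the next in this order by less than its SD. At the other end, 14 members did not pass the filter on low counts in the fetal table: Irx1, Irx3, Irx4, Irx5, Irx6, Barx1, Barx2, Dlx2, Dlx4, Lhx2, Lhx6, Lhx8, Shox2 and Pitx1. In the uterine table Irx2, Dlx1, Dlx3 and Dlx6 also failed it, so that 27 and 23 members were tested. Irx4 gave 2 counts over the 12 fetal libraries and 0 over the 6 uterine ones.

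**Figure D1:**
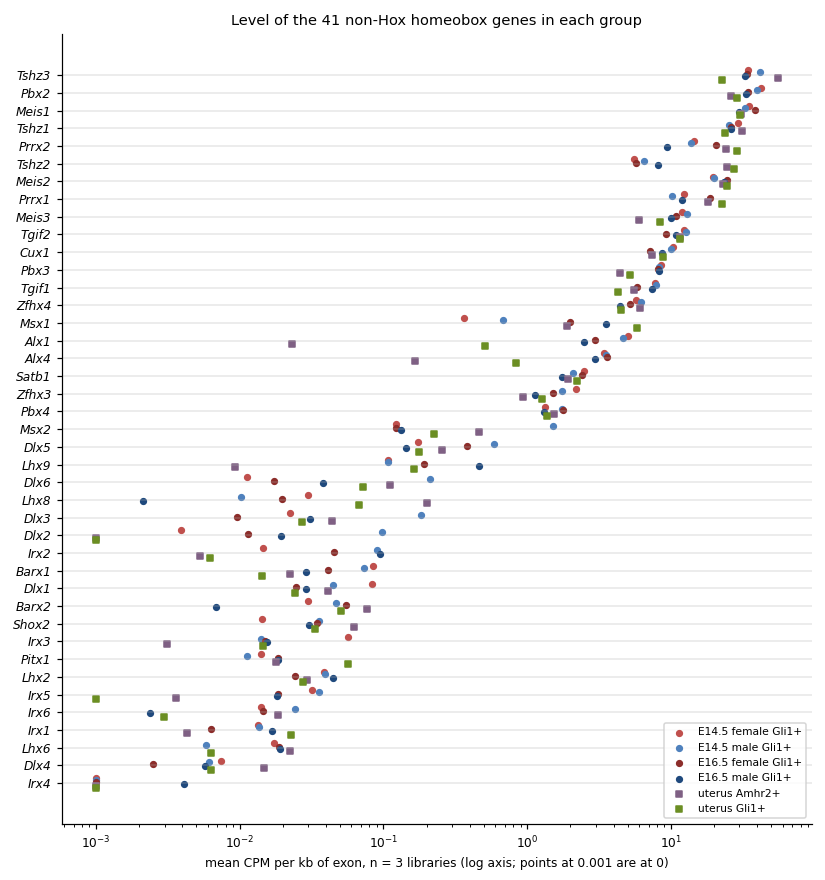
Mean level of each of the 41 members in the 6 groups, in CPM per kb of exon on a log axis (n = 3 libraries a group; circles fetal, squares uterine; points at 0.001 are at 0). Pbx2, Meis1, Tshz1 and Tshz3 stand highest in the fetal groups, and the untested Irx, Barx and Lhx genes lie at the bottom.

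The ATAC-seq file is 1 list of 71040 positions for all fetal samples, with no height or sample, so it shows where chromatin was called accessible in fetal Gli1+ mesenchyme but not in which sex or age. A peak lay within 1 kb of the start of 26 of the 41 members (63.4%, Wilson 95% interval 48.1 to 76.4), against 41.8% of all rows. Among the 27 members tested in fetal libraries 22 (81.5%) had one, against 79% of all tested rows and 86.8% of tested protein-coding genes. Of the 14 untested members 4 (28.6%, interval 11.7 to 54.6) had one, against 13.7% of untested rows and 12.7% of untested protein-coding genes. Within 5 kb the untested members rose to 10 of 14 (71.4%, interval 45.4 to 88.3), against 30.3% of untested rows and 24.4% of untested protein-coding genes. Thus Dlx2, Dlx4, Irx1 and Irx5, with few counts, still had a peak within 5 kb of their start. The count of 26 depends on the distance allowed: 13 members (31.7%) had a peak over the start itself, against 31.6% of all rows. All 13 were tested members (48.1% of these), against 65.8% of tested rows and 74.7% of tested protein-coding genes. The start used matters too. Within 1 kb of any annotated transcript start all 27 tested members had a peak, against 91.5% of tested protein-coding genes.

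**Figure D2:**
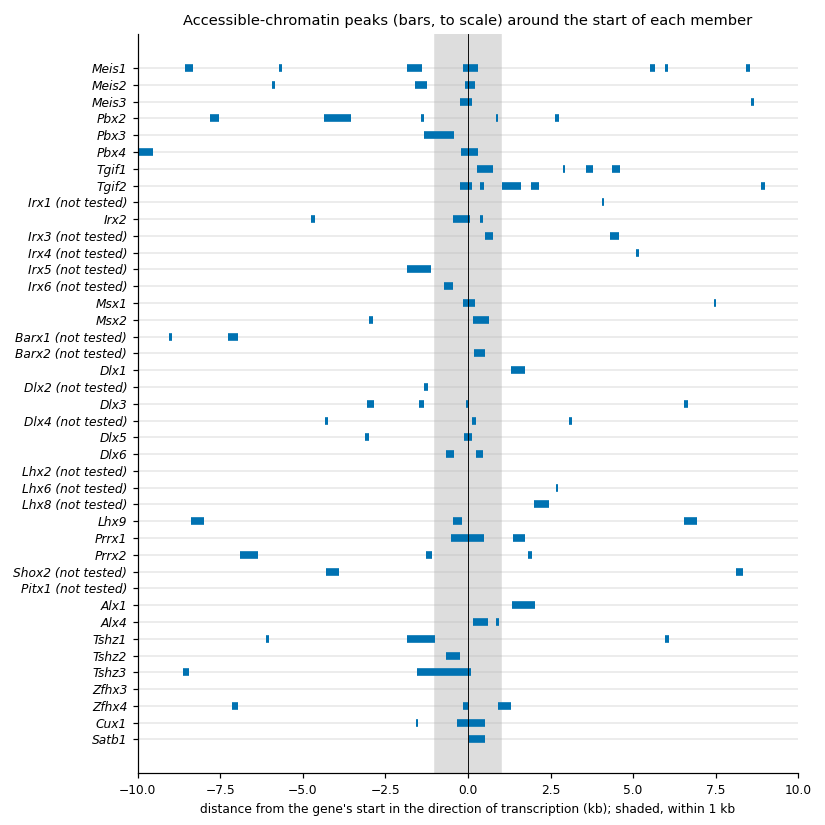
Accessible-chromatin peaks within 10 kb of the start of each member, as bars to scale, with distance in kb in the direction of transcription and the 1 kb window shaded. Peaks cover or adjoin the start of most tested members, and Zfhx3, Lhx2 and Pitx1 show none in the range drawn. The starts drawn are those of the counted rows. A RefSeq start window further along the gene holds 68 bases of a peak for Zfhx3 and 103 bases for Lhx2.

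Sequences are given for accessible stretches, free of annotated exons, beside 7 of the members with differences between groups described below, chosen after their values were seen. They were read from GRCm38 (mm10) on the + strand, except the Msx1 window, which is RefSeq's 250 bases before the gene start on the - strand (GRCm38.p6), of which 149 lie in a peak. Capitals mark TAATTA, the letters of a common homeodomain site; TGACAG (Meis), TGATTGAT (Pbx) and GACCACCCA (Gli) were searched on both strands as well. The other distances run from the start of the counted row to the centre of the peak. The Dlx6 stretch is a peak 538 bases upstream, the Dlx5 stretch 3050, the Dlx3 stretch 2955 and the Prrx2 stretch 1177 bases upstream. The Alx4 stretch is an intronic peak 892 bases inside the gene, and the Tshz3 stretch an intronic peak 22887 bases inside it. For Prrx2, RefSeq's start window lies further downstream, at chr2:30845117-30845366, and 117 of its 250 bases lie in a peak.
Msx1, chr5:37824586-37824835: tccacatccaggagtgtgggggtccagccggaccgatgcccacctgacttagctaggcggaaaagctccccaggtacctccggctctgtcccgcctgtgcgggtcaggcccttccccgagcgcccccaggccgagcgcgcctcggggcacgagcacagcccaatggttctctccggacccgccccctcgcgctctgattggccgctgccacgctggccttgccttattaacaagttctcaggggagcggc
Dlx6, chr6:6862670-6862922: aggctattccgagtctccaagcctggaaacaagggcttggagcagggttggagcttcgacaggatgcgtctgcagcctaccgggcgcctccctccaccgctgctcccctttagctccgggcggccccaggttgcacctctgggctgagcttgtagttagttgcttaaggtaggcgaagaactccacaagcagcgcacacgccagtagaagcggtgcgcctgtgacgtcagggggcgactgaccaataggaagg
Dlx5, chr6:6885070-6885201: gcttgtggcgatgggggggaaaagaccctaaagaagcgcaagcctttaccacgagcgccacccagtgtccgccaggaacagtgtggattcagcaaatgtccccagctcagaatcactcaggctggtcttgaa
Dlx3, chr11:95117067-95117262: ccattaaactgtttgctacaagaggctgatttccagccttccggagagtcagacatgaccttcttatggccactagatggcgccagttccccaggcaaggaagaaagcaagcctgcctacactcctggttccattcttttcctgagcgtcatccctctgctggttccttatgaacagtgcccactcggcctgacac
Prrx2, chr2:30833698-30833893: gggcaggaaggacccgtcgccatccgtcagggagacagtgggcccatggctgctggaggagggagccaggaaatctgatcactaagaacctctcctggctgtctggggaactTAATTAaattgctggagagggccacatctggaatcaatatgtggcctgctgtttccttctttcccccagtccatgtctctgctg
Alx4, chr2:93643234-93643319: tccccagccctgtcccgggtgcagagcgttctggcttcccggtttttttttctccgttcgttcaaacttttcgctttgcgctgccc
Tshz3, chr7:36720900-36721111: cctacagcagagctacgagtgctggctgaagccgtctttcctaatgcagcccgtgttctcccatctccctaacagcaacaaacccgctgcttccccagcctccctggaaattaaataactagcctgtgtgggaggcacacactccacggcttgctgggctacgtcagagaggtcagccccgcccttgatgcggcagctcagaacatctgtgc

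Of these 7 stretches the Prrx2 peak holds TAATTA, and none holds the Meis, Pbx or Gli letters; an absent match says only that those letters are not in the window. In the central 200 bases of the 39669 peaks at least that wide, TAATTA occurs in 4.06%, TGACAG in 13.2%, TGATTGAT in 0.471% and GACCACCCA in 0.373%. In the 102 such peaks in or within 5 kb of members the shares are 2.94%, 12.7%, 0% and 0%. RefSeq start windows of 250 bases were found for 27 members (38 windows): TAATTA is in those of Msx2 and Prrx1 (4.84% of all 32851 windows), TGACAG in that of Lhx9 (15.9%), and the Pbx and Gli letters in none (0.67% and 0.225%).

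At E14.5, 8 of 27 tested members differed between the sexes (adjusted p under 0.05, edgeR's quasi-likelihood test), against 6.28% of all tested genes. Females were higher for 2 (2.59% of all genes) and males for 6 (3.69%). At E16.5 the count was 11 (27.3% of all genes), with females higher for 7 (13.2%) and males for 4 (14.1%). An interaction of sex with age was called for 7 members (10% of all genes), 6 of them positive (4.66%) and 1 negative (5.36%). From E14.5 to E16.5, 14 members changed in females (39.6% of all genes): 7 rose (21%) and 7 fell (18.6%). In males 16 changed (23.3%), of which 5 rose (13.1%) and 11 fell (10.2%). In the uterus 14 of 23 members were called (23.9% of all genes), 5 with a higher level in Amhr2+ (10.1%) and 9 with a higher level in Gli1+ cells (13.7%). These counts include members that passed the filter on low counts only through the group where they were high (Dlx3 and Dlx6 through E14.5 males, Alx1 and Lhx9 through uterine Gli1+ cells), so they are given as a description of the tested members. The median log2 fold change of the members was -0.03, 0.05, 0.18, -0.02, -0.25 and -0.17 in these 6 comparisons, against values between -0.01 and 0.02 over all tested genes. With 3 libraries a group, absence of overlap in CPM was common among all tested genes. It held for 27.2% for sex at E14.5, 38.3% for sex at E16.5 and 44.4% in the uterus. For age it held for 56.6% in females and 34.9% in males. The share of all called genes that were higher moved from 56.1% to 41.2% for age in males and from 42.5% to 63.5% in the uterus when libraries were scaled by total count alone. The member counts moved by over 1.5 times without single libraries: sex at E14.5 gave 4 without female replicate 1 or male replicate 2 and 5 without male replicate 3, the interaction 4 without E14.5 female replicate 3, E14.5 male replicate 2 or E16.5 female replicate 1, age in females 9 without E16.5 female replicate 1 or 2, and the uterus 7 without Amhr2+ replicate 1. Calls over all tested genes fell in these runs as well. For sex at E14.5 they went from 1121 to 578, 686 and 553. For the interaction they went from 1790 to 1393, 1448 and 1446. For age in females they went from 7068 to 5632 and 5738, and in the uterus from 3866 to 1949. Comparisons that share a group (both sexes and both ages) are not independent of each other.

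**Figure D3:**
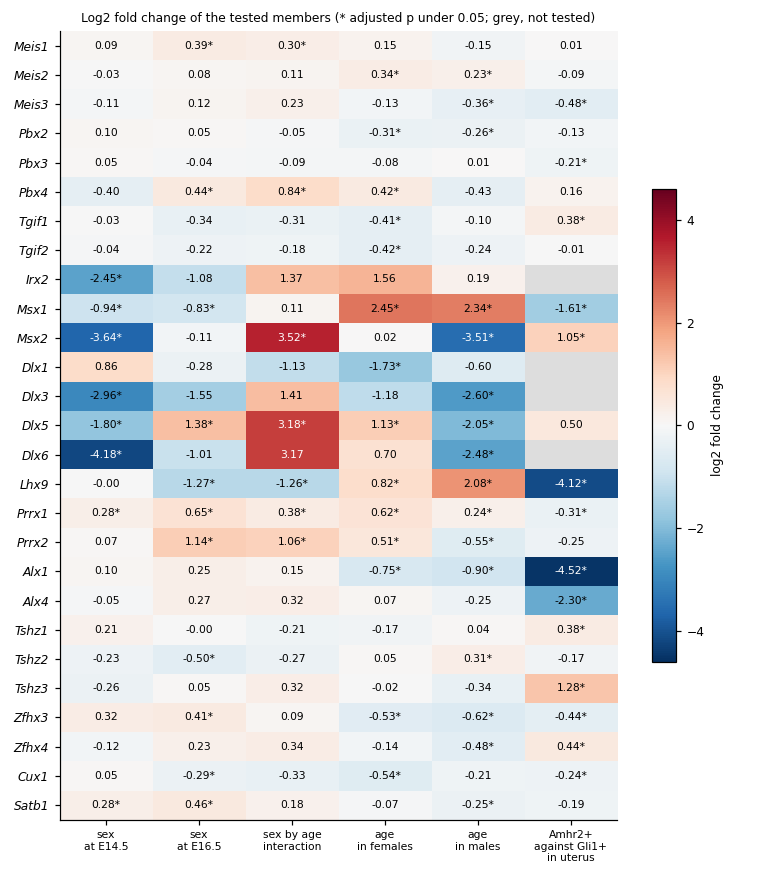
Log2 fold change of the 27 tested members in the 6 comparisons (positive: higher in females, at E16.5 or in Amhr2+ cells; for the interaction, a sex difference more female at E16.5); asterisks mark adjusted p under 0.05, and grey cells were not tested. Deep colours include Msx2, Dlx3 and Dlx6 in E14.5 males and Alx1 and Lhx9 in the uterus.

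Msx1 and Msx2, related repressors of differentiation, moved in different patterns. Msx2 was highest in E14.5 male mesonephros: its levels were 4.29, 6.36 and 4.33 CPM in E14.5 males and 0.234, 0.279 and 0.688 CPM in E14.5 females. At E16.5 they were 0.441, 0.419 and 0.354 CPM in females and 0.63, 0.214 and 0.452 CPM in males. Every E14.5 male library thus stood above all other fetal libraries. The female-against-male log2 fold change was -3.64 (SE 0.349, adjusted p 1.55e-05) at E14.5 and -0.11 (adjusted p 0.873; 95% interval -0.96 to 0.73) at E16.5, and in males Msx2 fell by 3.51 between the ages (adjusted p 9.23e-07). None of these calls was lost under any alternative run. In the uterus Msx2 was 1.56, 1.48 and 1.53 CPM in Amhr2+ and 1.1, 0.464 and 0.633 CPM in Gli1+ cells, a log2 fold change of 1.05 (adjusted p 0.0437). That call was lost without any 1 of the Amhr2+ libraries or Gli1+ replicate 2 or 3 (adjusted p 0.084 to 0.125).

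Msx1 was higher in males and rose with age in both sexes. It measured 1.2, 1.15 and 1.01 CPM in E14.5 females, and 5.93, 5.52 and 7.05 CPM in E16.5 females. Males measured 1.51, 2.75 and 2.09 CPM at E14.5 and 10.3, 10.04 and 12.49 CPM at E16.5. Neither sexes nor ages overlapped, as for 27.2% to 56.6% of all tested genes in the single fetal comparisons. The age changes were 2.45 (SE 0.203, adjusted p 2e-07) in females and 2.34 (SE 0.178, adjusted p 1.3e-07) in males on the log2 scale. The sex differences were -0.94 (adjusted p 0.0158) at E14.5 and -0.83 (adjusted p 0.00118) at E16.5, with no interaction called (0.11, adjusted p 0.865). The E14.5 call was lost without any 1 female library, or without male replicate 2 or 3 (adjusted p 0.0507 to 0.085). Uterine Msx1 was 5.89, 7.79 and 4.07 CPM in Amhr2+ and 17.4, 20.2 and 16.9 CPM in Gli1+ cells, so that each Gli1+ library exceeded every Amhr2+ library (log2 fold change -1.61, adjusted p 0.00132). Barx1 and Barx2, further relatives, were under 0.2 CPM in every library.

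**Figure D4:**
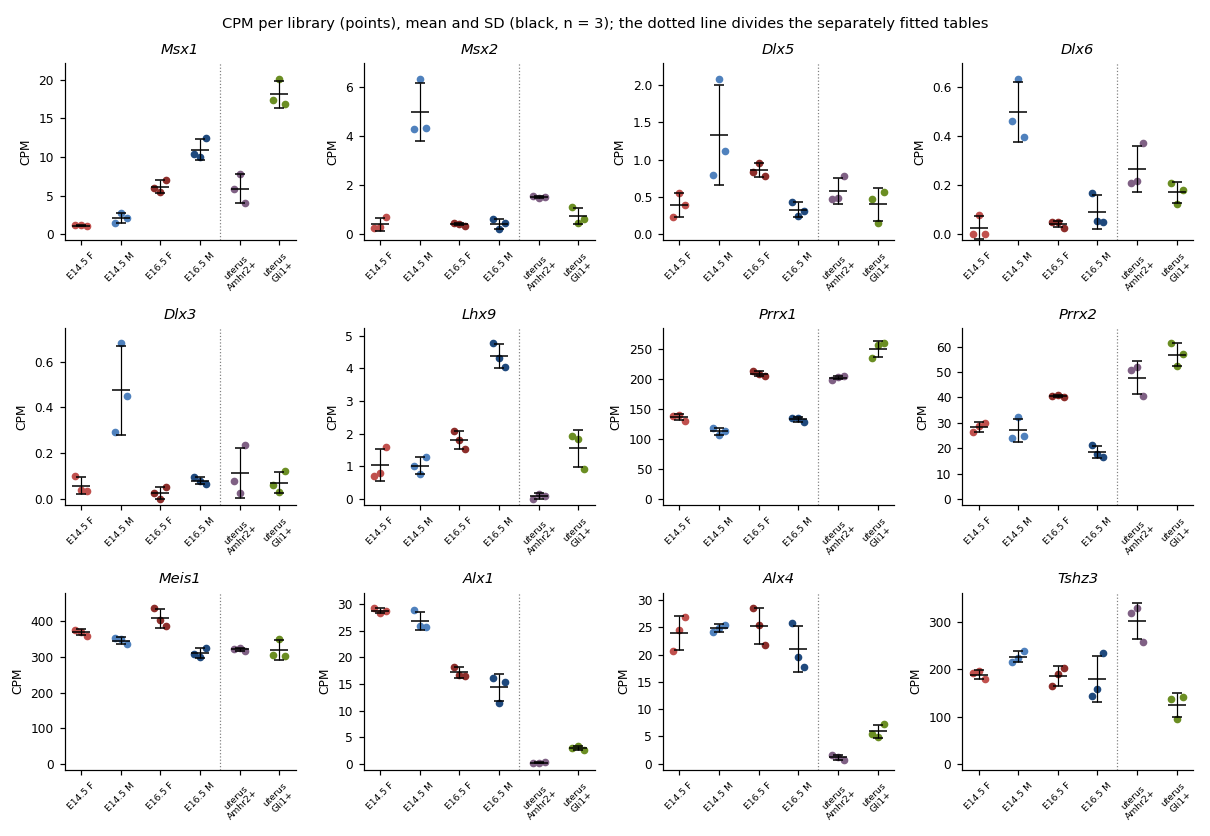
CPM of 12 members in each library (points), with the mean and SD of each group (black, n = 3); the dotted line divides the fetal from the uterine table, which were fitted separately. Msx2, Dlx3, Dlx5 and Dlx6 peak in E14.5 males, Prrx1, Prrx2 and Meis1 are higher in E16.5 females than in E16.5 males, and Alx1, Alx4 and Lhx9 are lower in uterine Amhr2+ than Gli1+ cells.

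The Dlx genes lie in the genome as convergently transcribed pairs (Dlx1 with Dlx2, Dlx3 with Dlx4, Dlx5 with Dlx6; 9.43, 15.2 and 9.24 kb apart). All were at or below 2.09 CPM in every library. Dlx5, the most abundant, measured 0.234, 0.557 and 0.398 CPM in E14.5 females and 0.799, 2.09 and 1.12 CPM in E14.5 males. By E16.5 the order was the opposite: 0.833, 0.96 and 0.783 CPM in females against 0.436, 0.24 and 0.307 CPM in males. Neither pair of groups overlapped. The log2 fold change was -1.80 (SE 0.379, adjusted p 0.00989) at E14.5 and 1.38 (SE 0.375, adjusted p 0.0122) at E16.5, and the interaction was 3.18 (SE 0.538, adjusted p 0.00104). Between the ages Dlx5 rose by 1.13 in females (adjusted p 0.035) and fell by 2.05 in males (adjusted p 0.000619). The E14.5 call was lost without female replicate 1 (adjusted p 0.0688) or male replicate 2 (0.0587), and the rise in females without E14.5 female replicate 1 or 3 or E16.5 female replicate 1 or 2 (0.0632 to 0.157). In the uterus Dlx5 was 0.467, 0.485 and 0.78 CPM in Amhr2+ and 0.477, 0.155 and 0.573 CPM in Gli1+ cells, which overlapped (0.50, adjusted p 0.465).

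Dlx6, which is paired with Dlx5, gave 60 counts in E14.5 males and 2 in E14.5 females, a ratio of 20.4 with an exact 95% counting interval of 5.40 to 172. Its levels were 0.463, 0.634 and 0.397 CPM in the males and 0, 0.0796 and 0 CPM in the females (adjusted p 0.00311). It passed the filter only through E14.5 males. At E16.5 Dlx6 gave 12 counts in males and 5 in females, and its fall in males between the ages was called (adjusted p 0.00237). The antisense row Dlx6os1 overlaps it; without known strand use their reads cannot be told apart.

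Dlx3, on another chromosome, was at 0.295, 0.681 and 0.451 CPM in E14.5 males and 0.1, 0.0398 and 0.0362 CPM in E14.5 females, 61 against 5 counts (ratio 8.28, counting interval 3.36 to 26.4; adjusted p 0.00509). Like Dlx6 it passed the filter only through E14.5 males, and it fell in males by E16.5 (adjusted p 0.000873). Its E16.5 sexes were 11 and 3 counts, which did not pass (adjusted p 0.184). Dlx2 was not tested, with 1, 0 and 0 counts in E14.5 females and 5, 13 and 18 in E14.5 males. Without the filter on low counts, its adjusted p was 0.00428. Its ratio was 24.4, with a counting interval of 4.11 to 992. Dlx1, the partner of Dlx2, was not called for sex at E14.5 (log2 fold change 0.86, adjusted p 0.334). It was at 0.401, 0.358 and 0.579 CPM in E14.5 females and 0.21, 0.282 and 0.235 CPM in E14.5 males. Dlx1 fell in females to 0.0735, 0.0739 and 0.253 CPM at E16.5, by 1.73 (adjusted p 0.012), a call lost without E14.5 female replicate 3 or E16.5 female replicate 1 or 2 (0.0532 to 0.0602). Its antisense row Dlx1as overlaps it and was more abundant. Dlx1as averaged 2.79 CPM (females) and 2.16 CPM (males) at E14.5, then 2.08 and 1.73 CPM, respectively, by E16.5. It leaned the same way as Dlx1 without a call, for sex at E14.5 (0.40, adjusted p 0.358) and age in females (-0.42, adjusted p 0.135). Whether Dlx1 and Dlx1as share reads was not tested. Dlx4 gave 9 counts over all fetal libraries.

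Iroquois factors, which pattern heart, limb and neural tissue, were near the floor. Irx2 alone was tested, in fetal libraries, at 0.379, 0.305 and 0.198 CPM in E14.5 males and 0.0668, 0.0398 and 0.0362 CPM in E14.5 females. The groups did not overlap (adjusted p 0.0429; 33 against 4 counts, ratio 5.60, counting interval 1.99 to 21.8). Without any 1 of the 6 E14.5 libraries the call was lost (adjusted p 0.0587 to 0.158), as with DESeq2 (0.0678). At E16.5 the sexes overlapped (adjusted p 0.104). The other 5 Irx genes had 0 to 1 fetal libraries above the filter's minimum of 0.247 CPM.

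Among the paired-type factors, Prrx1 and Prrx2 are mesenchymal homeobox genes of limb and face. Prrx2 measured 40.5, 41.1 and 40.2 CPM in E16.5 females and 21.1, 17.6 and 16.7 CPM in E16.5 males, and 26.4, 28.8 and 30.1 CPM in E14.5 females against 23.9, 32.2 and 25 CPM in E14.5 males. The sexes overlapped at E14.5 and separated at E16.5. The log2 fold change was 0.07 (adjusted p 0.801) at E14.5 and 1.14 (SE 0.11, adjusted p 1.16e-06) at E16.5, with an interaction of 1.06 (adjusted p 0.000298). Between the ages it rose in females (0.51, adjusted p 0.0017) and fell in males (-0.55, adjusted p 0.00163). Prrx1 was higher in females at both ages: 138, 139 and 130 against 118, 106 and 113 CPM at E14.5, and 212, 207 and 205 against 134, 135 and 127 CPM at E16.5. The 2 sex differences were 0.28 (adjusted p 0.0087) and 0.65 (adjusted p 4.47e-07) on the log2 scale, and the interaction 0.38 (adjusted p 0.0062). It rose with age by 0.62 (adjusted p 7.55e-07) in females and 0.24 (adjusted p 0.00699) in males; the latter was lost when only the 6 male libraries were fitted (0.0532), and the E14.5 sex difference without female replicate 1 (0.0505) or 2 (0.0524).

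Alx1 and Alx4, paired-type factors of craniofacial and limb mesenchyme, differed between the uterine groups by over 2-fold. Alx1 measured 0.0519, 0.108 and 0.237 CPM in Amhr2+ and 2.98, 3.31 and 2.56 CPM in Gli1+ cells (log2 fold change -4.52, SE 0.381, adjusted p 0.000141). Alx4 measured 1.61, 1.21 and 0.712 CPM against 5.48, 4.92 and 7.3 CPM (-2.30, SE 0.285, adjusted p 0.000905). Every Gli1+ library stood above every Amhr2+ library for both. Alx1 passed the filter only through the Gli1+ group. In fetal mesonephros Alx1 was far higher, at 29.3, 28.3 and 28.8 CPM in E14.5 females and 28.9, 26 and 25.7 CPM in E14.5 males; the tables were normalized separately, so no test joins them. It fell with age by 0.75 in females (adjusted p 5.19e-05) and 0.90 in males (adjusted p 1.25e-05). Alx4, at 17.7 to 28.5 CPM in the fetal libraries, was not called for age (adjusted p 0.691 in females and 0.206 in males). At E16.5, where the replicate numbers may pair libraries, the fit with the replicate block called Alx1 (0.26, adjusted p 0.0326) and Alx4 (0.28, adjusted p 0.0137) higher in females, against adjusted p 0.0922 and 0.155 without it. Ext2, a gene on the other strand that overlaps Alx4, was 120 CPM in Amhr2+ and 141 CPM in Gli1+ cells (-0.23, adjusted p 0.0186). Prrx1 was also lower in Amhr2+ cells (199, 202 and 205 against 234, 256 and 259 CPM; -0.31, adjusted p 0.00847), a call lost without Amhr2+ replicate 1 (0.0588), whereas Prrx2 did not pass (-0.25, adjusted p 0.122). Shox2 and Pitx1, factors of limb development, stayed untested in both tables.

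Lhx9, a LIM homeobox factor needed for gonad formation, was low. It was called for sex at E16.5, for the interaction, for age in both sexes and in the uterus, but not all of these calls held. E16.5 males held 4.77, 4.33 and 4.04 CPM, against 2.08, 1.82 and 1.54 CPM in E16.5 females. At E14.5 the sexes overlapped, at 0.701, 0.796 and 1.59 CPM in females and 1.01, 0.774 and 1.28 CPM in males. The female-against-male log2 fold change was -0.0050 (adjusted p 0.996) at E14.5 and -1.27 (SE 0.237, adjusted p 0.000835) at E16.5, with an interaction of -1.26 (adjusted p 0.0446). The interaction was lost without any 1 of E14.5 female replicate 3, E14.5 male replicates 1 or 2, or any E16.5 library (adjusted p 0.0511 to 0.199). Lhx9 rose with age in males by 2.08 (adjusted p 1.72e-05) and in females by 0.82 (adjusted p 0.0285), the latter with overlap and lost without E14.5 female replicate 1 or 2 or E16.5 female replicate 1 or 2 (0.0609 to 0.144). In the uterus it was 0, 0.162 and 0.102 CPM in Amhr2+ and 1.94, 1.83 and 0.905 CPM in Gli1+ cells (-4.12, adjusted p 0.00271), having passed the filter only through Gli1+ cells. The 10 gonad somatic markers, which do not include Lhx9, summed to 65.8 to 74.3 CPM in E16.5 males and 47.7 to 53.0 CPM in E16.5 females, with 3 of 7 tested lower in females and 1 marker at 0 in each group. In the uterus, where Lhx9 was lower in Amhr2+ cells, the same markers summed to 74.1 to 123 CPM in Amhr2+ and 66.2 to 68.5 CPM in Gli1+ cells, with 1 of 5 tested higher in Amhr2+ cells. Each of these sums was mostly 1 gene, Foxl2. Its means were 52.3 CPM in E16.5 males, 34.3 in E16.5 females, 99.4 in Amhr2+ and 62.2 in Gli1+ cells. The part of these markers in the Lhx9 result was not tested. Lhx2, Lhx6 and Lhx8, factors of brain, skin and oocytes, were not tested.

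Tshz and Zfhx genes encode large factors that combine zinc fingers with homeodomains. Tshz3, known from ureter smooth muscle, was the most abundant member per kb of exon in Amhr2+ cells of the uterus. Its levels there were 319, 330 and 258 CPM against 137, 94.9 and 142 CPM in Gli1+ cells, with no overlap (log2 fold change 1.28, SE 0.162, adjusted p 0.00177). The 4 clone transcripts annotated within it on the same strand differed in the same direction, by 1.90 to 2.30 on the log2 scale (adjusted p 0.0017 to 0.0247); whether reads are shared between these rows was not tested. Tshz1 (0.38, adjusted p 0.00346) and Zfhx4 (0.44, adjusted p 0.01) were higher in Amhr2+ cells as well, and Zfhx3 was lower (-0.44, adjusted p 0.0276; lost without Amhr2+ replicate 1 or 2 or Gli1+ replicate 1 or 2, 0.0604 to 0.108). Tshz2 was not called there (-0.17, adjusted p 0.161), at 176 to 234 CPM. In fetal cells Tshz3 held 145 to 239 CPM and was not called for sex (adjusted p 0.389 and 0.836). Both results changed under alternatives. With the 6 E14.5 libraries alone it was lower in females (-0.26, adjusted p 0.0241). Without E16.5 male replicate 3 it was higher in E16.5 females (0.29, adjusted p 0.0305), with an interaction of 0.55 (adjusted p 0.00777). That run also called its fall with age in males (-0.57, adjusted p 0.000262). Tshz2 was higher in males at E16.5, at 53.1, 69.5 and 66.6 CPM against 45, 45.7 and 43 CPM in females (-0.50, adjusted p 0.00105). Zfhx3 was higher in females at E16.5 (0.41, adjusted p 0.00785; lost without female replicate 2, 0.0681) and fell with age in both sexes (-0.53, adjusted p 0.000888, and -0.62, adjusted p 0.000404). Zfhx4 fell with age in males (-0.48, adjusted p 0.00297), and Tshz2 rose there (0.31, adjusted p 0.0265; lost without E14.5 male replicate 1 or 3 or E16.5 male replicate 2 or 3, 0.0517 to 0.111).

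Meis and Pbx cofactors, the most abundant family beside Tshz, changed by less than 2-fold in every comparison. At E14.5 none of the 6 differed between the sexes. Meis1 was higher in E16.5 females (437, 403 and 386 CPM) than in E16.5 males (308, 300 and 326 CPM), with a log2 fold change of 0.39 (adjusted p 0.000185). Its interaction was 0.30 (adjusted p 0.0397), lost without any 1 of the 3 E14.5 female libraries, E14.5 male replicate 2 or 3, E16.5 female replicate 1 or 2, or E16.5 male replicate 2 (adjusted p 0.055 to 0.151), and also with RLE size factors, DESeq2's scaling (0.052), or with no filter on low counts (0.0599). Meis2 rose with age in both sexes (0.34, adjusted p 0.000185, and 0.23, adjusted p 0.00701), and Pbx2 fell in both (-0.31, adjusted p 0.00114, and -0.26, adjusted p 0.00661). Meis3 fell with age in males (-0.36, adjusted p 0.00734) and was lower in Amhr2+ cells (-0.48, adjusted p 0.0266; lost without Amhr2+ replicate 1 or any Gli1+ library, 0.0508 to 0.0687). Pbx4, at 2.38 to 4.14 CPM, was the least abundant of the family: its sex difference went from -0.40 (adjusted p 0.167) at E14.5 to 0.44 (adjusted p 0.0392) at E16.5, and the interaction was 0.84 (adjusted p 0.0198). Those Pbx4 calls were lost without E16.5 female replicate 1, 2 or 3 or E16.5 male replicate 2 for the sex difference (0.0638 to 0.153; also 0.0794 with no filter on low counts and 0.0976 in the 6 libraries alone), and without E14.5 female replicate 3, E14.5 male replicate 2 or 3 or E16.5 female replicate 1 for the interaction (0.0521 to 0.0631). Pbx4 also rose with age in females (0.42, adjusted p 0.0451), a call lost without any 1 of the 6 libraries (0.0572 to 0.168), with no filter (0.0716) and with scaling by total count (0.0781). Pbx3 was lower in Amhr2+ cells (-0.21, adjusted p 0.0495) and lost the call in 10 of 11 alternatives (up to 0.198).

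**Figure D5:**
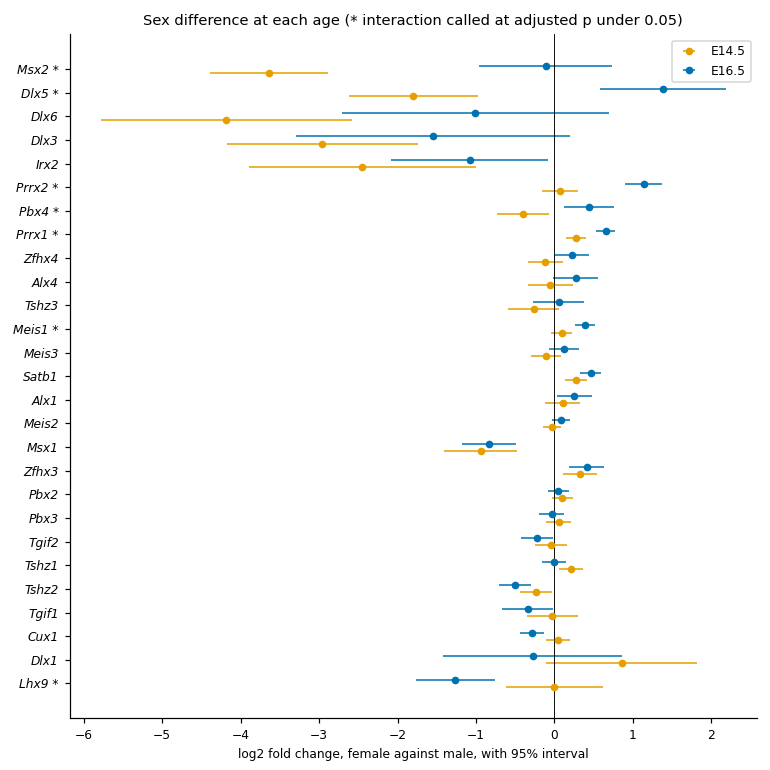
Female-against-male log2 fold change of the 27 tested members at E14.5 (orange) and E16.5 (blue), with 95% intervals, ordered by the change between the ages; asterisks mark a called interaction. Msx2 and Dlx5 moved most, from male-higher at E14.5 to no call or female-higher at E16.5, and Lhx9 lies at the opposite end. The interactions of the 4 tested Dlx genes ran from -1.13 to 3.18, with a median of 2.29, and only that of Dlx5 was called.

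Tgif1 and Tgif2, repressors of retinoid and TGF-beta target genes, fell with age in females (-0.41, adjusted p 0.0456, and -0.42, adjusted p 0.00343) and were not called in males (-0.10, adjusted p 0.68, and -0.24, adjusted p 0.092); the difference between the sexes was not called (interaction -0.31, adjusted p 0.421, and -0.18, adjusted p 0.476). The Tgif1 call was lost without any 1 of the 6 female libraries (0.0505 to 0.177) and with no filter (0.157). With the replicate block Tgif2 was lower in E16.5 females (-0.22, adjusted p 0.0158), against 0.103 without it. Uterine Tgif1 was higher in Amhr2+ cells (0.38, adjusted p 0.0306), a call lost without any 1 of the Amhr2+ libraries or Gli1+ replicate 1 or 3 (0.0624 to 0.0874). Cux1, a CUT-domain repressor, fell with age in females (-0.54, adjusted p 3.32e-05) and was lower in E16.5 females than males (-0.29, adjusted p 0.00798). Its interaction missed the threshold (-0.33, adjusted p 0.0512) and passed with RLE size factors (0.0444), with no filter (0.04), with DESeq2 (0.0227) and with the replicate block (0.0157). It was also lower in Amhr2+ cells (-0.24, adjusted p 0.0147; lost without Amhr2+ replicate 1, 0.0725). Satb1, a chromatin organizer, was higher in females at both ages: 48.8, 45.4 and 49 against 41.2, 39.2 and 38 CPM at E14.5 (0.28, adjusted p 0.0163), and 45.1, 45.6 and 45.9 against 34.8, 32.6 and 31.9 CPM at E16.5 (0.46, adjusted p 5.23e-05). The sexes overlapped at neither age, and in males it fell between the ages (-0.25, adjusted p 0.00893). The E14.5 call was lost without female replicate 1 or 3 or male replicate 2 or 3 (0.0582 to 0.0932).

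Among 66 other homeobox genes outside the Hox clusters, 28 were tested in fetal and 25 in uterine libraries. Higher and lower calls numbered 1 and 2 for sex at E14.5, 7 and 5 for sex at E16.5, 4 and 1 for the interaction, 6 and 7 for age in females, 4 and 6 for age in males, and 2 and 8 for Amhr2+ against Gli1+ cells. Mkx, a tendon factor, was 10.4 CPM in E16.5 females and 36.7 CPM in E16.5 males (-1.83, adjusted p 1.48e-06) and 3.35 CPM in Amhr2+ against 9.31 CPM in Gli1+ cells (-1.47, adjusted p 0.000542). In the uterus Zhx2, a zinc finger homeobox repressor, followed at 10.8 CPM in Amhr2+ and 21.7 CPM in Gli1+ cells (-1.01, adjusted p 0.00209), and Six4, a muscle and kidney factor, at 12.9 and 22.8 CPM (-0.82, adjusted p 0.0032). Cux2, a relative of Cux1, measured 34.9 CPM in E16.5 females and 20.9 CPM in E16.5 males (0.74, adjusted p 9.34e-07), and Six4 there 15.6 and 10.3 CPM (0.61, adjusted p 0.00212).

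Marker lists moved in the same libraries. The 6 smooth muscle markers summed to 302 to 326 CPM in E14.5 females, 607 to 888 CPM in E14.5 males, 465 to 567 CPM in E16.5 females and 1716 to 2893 CPM in E16.5 males. Of the 6, 3 were lower in females at E14.5 and 5 at E16.5, and all 6 rose with age in males. The 5 mesothelial markers (3 lower in females) summed to 22.8 to 57.5 CPM in E16.5 females and 61.0 to 80.9 CPM in E16.5 males, and 5 of 7 immune markers were higher in E16.5 females. In the uterus 6 of 8 mesenchyme markers were lower in Amhr2+ cells (27584 to 29592 against 57642 to 64968 CPM), as were 2 of 6 smooth muscle markers (1122 to 1769 against 2121 to 2340 CPM), while 4 of 9 tested epithelial markers were higher (73.1 to 76.0 against 32.8 to 45.1 CPM). No marker of these 5 lists was at 0 in all libraries of a group. The 10 genes of the response to tissue dissociation (such as Fos and Egr1) spread widely within groups: 3872 to 18680 CPM in E16.5 males, with replicate 1 lowest, 10141 to 17027 CPM in E16.5 females, 8676 to 12040 CPM over both E14.5 groups, 3883 to 5080 CPM in Amhr2+ and 1261 to 12283 CPM in uterine Gli1+ cells. Of the 10, 2 were higher in E16.5 females than males (Hspa1a and Hspa1b) and 3 rose with age in females (these and Jun). E16.5 male replicates 1 and 3 also differed most among all pairs of one group (chi-square per gene 91.0). Without replicate 1, 16 members were called for sex at E16.5 in place of 11, with Tgif1, Tgif2, Irx2, Alx1 and Alx4 added (adjusted p 0.00879 to 0.0282). Calls over all genes rose in that run too, from 4883 of 17858 tested to 5745 of 18218. The part of the marker and dissociation genes in the differences of the homeobox genes was not tested.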

How the data were processed

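RNA-seq counts of 12 fetal and 6 uterine libraries and 1 list of ATAC-seq peaks were used as deposited. The submitters' processing notes name STAR 2.5, Subread 1.5.0-p1, featureCounts, Bowtie 1.2, SAMtools 1.3.1, Picard, bedtools 2.24.0, MACS2 2.1.1 and the build mm10, without a role for each. The RNA tables hold raw read counts per gene, deposited by the authors with 1 column a library. Per the labels' protocols the fetal kit was non-stranded and the uterine kit stranded; whether counting used strand is not given in the sources used here, so overlapping and antisense genes are uncertain. The peak list deposited by the authors holds positions only.

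Genes were tested with edgeR 4.0.16 (R 4.3.3; quasi-likelihood, TMM, filterByExpr by group, robust) on the counts, with p-values adjusted by the Benjamini-Hochberg method over the 17858 fetal or 16195 uterine genes tested and a threshold of 0.05. The 4 fetal groups shared 1 fit; the tables were never fitted together. CPM uses TMM-scaled library sizes. Exon lengths are unions of GENCODE vM21 exons. Of the rows, 64 repeat a symbol, and no row without a gene was found. Peak overlap with a gene start was counted from any shared base within 1 kb. Counting intervals of ratios, and floors, cover counting error only. Intervals of fold changes come from the quasi-likelihood fit and include the spread between libraries. Wilson intervals concern shares of genes, not reads. The test code was checked on simulated counts.

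The members, their families and the marker lists were chosen with earlier results of these data known. All 41 may be named; values per library are given for members called with a log2 fold change of at least 1 and no overlap of CPM, and for a few others chosen after their values were seen. Of the other homeobox genes, the text names some of those called with at least 5 CPM in the higher group. Alternatives were other scalings, no filter, DESeq2 1.42.0, a replicate block, the compared libraries alone and each library left out. Same-numbered libraries at E16.5 deviated together between the sexes (correlations 0.28, 0.11 and 0.40), and in no other comparison did all exceed 0.1; the labels do not explain the numbers.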

Additional observations from a re-analysis of the deposited data

Results flagged for a closer look

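In 7 members the sex difference at E16.5 differed from that at E14.5 by the interaction term of edgeR's quasi-likelihood fit. The interaction, on the log2 scale, was 3.52 for Msx2, 3.18 for Dlx5, 1.06 for Prrx2, 0.84 for Pbx4, 0.38 for Prrx1, 0.30 for Meis1 and -1.26 for Lhx9. Positive values mean that females stood higher relative to males at E16.5 than at E14.5. For Dlx5 every E14.5 male library exceeded every E14.5 female library, and at E16.5 every female library exceeded every male library. Of all tested genes, 27.2% at E14.5 and 38.3% at E16.5 had no overlap between the sexes in either direction. For Msx2 the difference lay in E14.5 males alone among the fetal groups. The Pbx4, Meis1 and Lhx9 terms were lost without single libraries, whereas those of Msx2, Dlx5, Prrx2 and Prrx1 passed in all 17 alternatives. Smooth muscle markers differed between the sexes at both ages in the same libraries (302 to 326 CPM in females against 607 to 888 CPM in males at E14.5, and 465 to 567 against 1716 to 2893 CPM at E16.5), and their part in these terms was not tested.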

How the results depend on the processing

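Of 70 calls of members over the 6 comparisons, 43 held under every alternative run and 27 were lost under at least 1; in none did the direction reverse. The counts of members called, when each library was left out in turn, ranged from 4 to 8 for sex at E14.5, 9 to 16 for sex at E16.5, 4 to 9 for the interaction, 9 to 13 for age in females, 15 to 19 for age in males and 7 to 12 in the uterus. Over all tested genes the calls ranged, in the same order, from 553 to 1678, 3618 to 5745 and 1335 to 2687. For age in females, age in males and the uterus they ranged from 5249 to 6460, 3364 to 3924 and 1949 to 3521. The replicate block gave 9, 14, 8, 12, 17 and 13 members called, and for sex at E16.5 it added Tgif2, Alx1 and Alx4. Over all tested genes the block gave 1581, 5901, 2592, 6255, 3463 and 4725 calls. Without the block these were 1121, 4883, 1790, 7068, 4168 and 3866. Same-numbered libraries did not all correlate above 0.1 for sex at E14.5, for age or in the uterus. There the block gained Zfhx3 for sex at E14.5 and Tshz3 for age in males. It lost Pbx4 and Lhx9 for age in females and Pbx3 in the uterus. For the interaction, which includes the E16.5 libraries, it gained Cux1. Each of these changes also occurred under at least 1 other alternative, and their source was not tested. Fitting the 6 male libraries alone lost the age calls of Meis2, Pbx2, Prrx1, Tshz2 and Satb1 (adjusted p 0.0532 to 0.0759). Scaling by total count alone lost Pbx3, Zfhx3 and Cux1 in the uterus and Pbx4 for age in females, and gained Meis1, Pbx4, Tgif2, Tshz3 and Cux1 for age in males and Tshz1 for age in females. Members with a peak at the start numbered 13 when the peak had to cover it, 36 within 5 kb and 35 with any annotated transcript start. The shares of all rows with a start of each kind were 31.6%, 55.1% and 53.9%. Depth limits members under about 0.2 CPM, whose differences were not detectable, and the lack of heights in the peak list limits all comparisons of chromatin between groups.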
